A study of Rattus norvegicus with 31 samples.

Results

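The genes described are 9 listed as markers of the thick ascending limb of the loop of Henle, chosen by symbol. They are Slc12a1, Kcnj1, Umod, Egf, Cldn16, Cldn19, Cldn10, Tmem207 and Tmem52b. Bulk cortex holds other tubule segments, and whether the counts of these genes came from this segment alone was not tested. All 9 were found among the 20207 gene symbols of the count table. RNA came from rat (Rattus norvegicus) kidney cortex and colon. The cortex had 6 libraries from rats given salt plus calcitriol (CAL), 4 from high-salt model rats (HS) and 5 from normal controls (NC). The colon, in which these genes serve as a contrast, had 6 CAL, 5 HS and 5 NC libraries. Calcitriol is the hormone that vitamin D is converted to. CAL and HS animals share the high-salt model. The salt content, calcitriol dose, duration, strain, age and sex were not given in the sources used here, nor whether each library is 1 animal. Each p therefore measures the spread between these samples, which may be technical in part.

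The thick ascending limb takes up sodium, potassium and chloride from the tubule fluid while remaining impermeable to water, and so dilutes the urine. The cotransporter NKCC2 (Slc12a1) carries the salt in, the potassium channel ROMK (Kcnj1) returns potassium to the lumen, and the resulting voltage drives sodium, calcium and magnesium between the cells through claudin pores. The same cells secrete uromodulin (Umod), the most abundant protein of normal urine, and make the precursor of epidermal growth factor (Egf).

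Total counts per library ran from 289529 to 2265164 in the cortex and from 267976 to 918820 in the colon. The 9 genes together took 0.378% to 1.03% of the counts of a cortex library, and Umod supplied 78.6% of those counts. Every member had a count in every cortex library, from a lowest single count of 8 (Cldn19) to a highest of 10755 (Umod). Colon epithelial markers gave pooled levels of 110.5 to 3480 CPM (counts scaled to a common library total) in the colon. In bulk tissue, fewer cells of a type and less RNA per cell cannot be told apart. Gene length was not used, so levels are compared between samples and not between genes.

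Promoter sequences from RefSeq (build GRCr8), 250 bases before to 50 after a gene's start, were matched for 8 of the 9 members. The stretches shown are those of Tmem52b, the member past the threshold under high salt, and Umod, which supplies most of the counts. AAGGTCA, the extended half-site of estrogen-related receptors, was searched on both strands and would be in capitals. It lay in 0 of the 10 promoters of these 8 members, against 4.61% of all 33469 promoters in the table. With so few promoters, 0 of 10 is near that share.
Tmem52b, GRCr8 chr4:164639799-164640098, + strand: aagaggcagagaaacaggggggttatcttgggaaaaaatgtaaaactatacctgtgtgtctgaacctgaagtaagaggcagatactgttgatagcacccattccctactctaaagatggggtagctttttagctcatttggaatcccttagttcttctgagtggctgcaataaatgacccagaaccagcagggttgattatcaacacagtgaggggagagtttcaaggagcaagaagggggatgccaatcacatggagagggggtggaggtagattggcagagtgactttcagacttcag
Umod, GRCr8 chr1:183260967-183261266, - strand: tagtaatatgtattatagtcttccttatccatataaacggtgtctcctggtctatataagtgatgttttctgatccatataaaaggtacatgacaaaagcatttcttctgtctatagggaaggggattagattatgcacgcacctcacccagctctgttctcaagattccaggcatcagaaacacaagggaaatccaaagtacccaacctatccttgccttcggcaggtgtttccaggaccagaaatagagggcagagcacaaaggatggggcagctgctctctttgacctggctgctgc

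Under high salt, 1 of the 9 genes, Tmem52b, rose in the cortex and none fell. Its neighbour in size of change, Tmem207, lay higher in HS without passing, and the genes for the cotransporter, the potassium channel, uromodulin and the claudins did not pass. Genes were tested on counts with the edgeR quasi-likelihood test, and a gene passed at a Benjamini-Hochberg adjusted p under 0.05 over all 7524 cortex genes tested. Of all tested genes 11.0% passed between HS and NC, and 7.35% were higher, so that 1 of 9 is near the background. At an unadjusted p under 0.05 there were 2 of the 9, Tmem52b and Tmem207, against 27.3% of all tested genes. The median log2 fold change of the 9 was 0.16, and that of all tested genes -0.01.

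Tmem52b encodes a small membrane protein of distal tubule segments. Its level, in CPM scaled by the trimmed mean of M-values (TMM), was 461, 491, 396 and 486 in HS replicates 1 to 4, against 255, 351, 299, 438 and 255 in NC replicates 1 to 5. Of the HS libraries, 3 of 4 lay above every NC library, and HS replicate 3 lay below NC replicate 4. The means were 459 ± 43.6 CPM in HS (SD, n = 4) and 319.5 ± 76.9 CPM in NC (SD, n = 5), with a log2 fold change of 0.53 (SE 0.16, edgeR adjusted p = 0.0384). The call ended without NC replicate 1 (edgeR adjusted p = 0.0900), NC replicate 3 (0.0724) or NC replicate 5 (0.0903), and without HS replicate 1 (0.0922), HS replicate 2 (0.105) or HS replicate 4 (0.0901). It also ended with a filter at 1 CPM (0.0567) and with all libraries thinned to the shallowest (0.116), while the fold change stayed between 0.44 and 0.66.

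Tmem207 encodes another small membrane protein, and its gene lies next to Cldn16 on chromosome 11 of GRCr8 with 0 annotated genes between them. Tmem207 was at 77.6, 102, 105 and 91.9 CPM in HS replicates 1 to 4, against 80.8, 41.6, 46.8, 71.0 and 48.4 CPM in NC replicates 1 to 5. Of the 4 HS libraries, 3 lay above every NC library, and only HS replicate 1 was below the highest control. Over the 15 cortex libraries the Tmem207 levels rest on 13 to 80 counts a library. The log2 fold change of HS against NC was 0.72 (SE 0.24), with an edgeR adjusted p of 0.0555, just beyond the threshold. The adjusted p of Tmem207 was 0.0319 with voom and library weights, 0.0239 with the compared groups alone, 0.0331 with no filter on low counts, 0.0468 with robust empirical Bayes, 0.0402 when thinned and 0.0301 without NC replicate 1. It stayed above the threshold with DESeq2 (0.0609), DESeq2 size factors (0.0573) and the 1 CPM filter (0.0664), and at 0.0570 to 0.142 without each other single library.

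**Figure D1:**
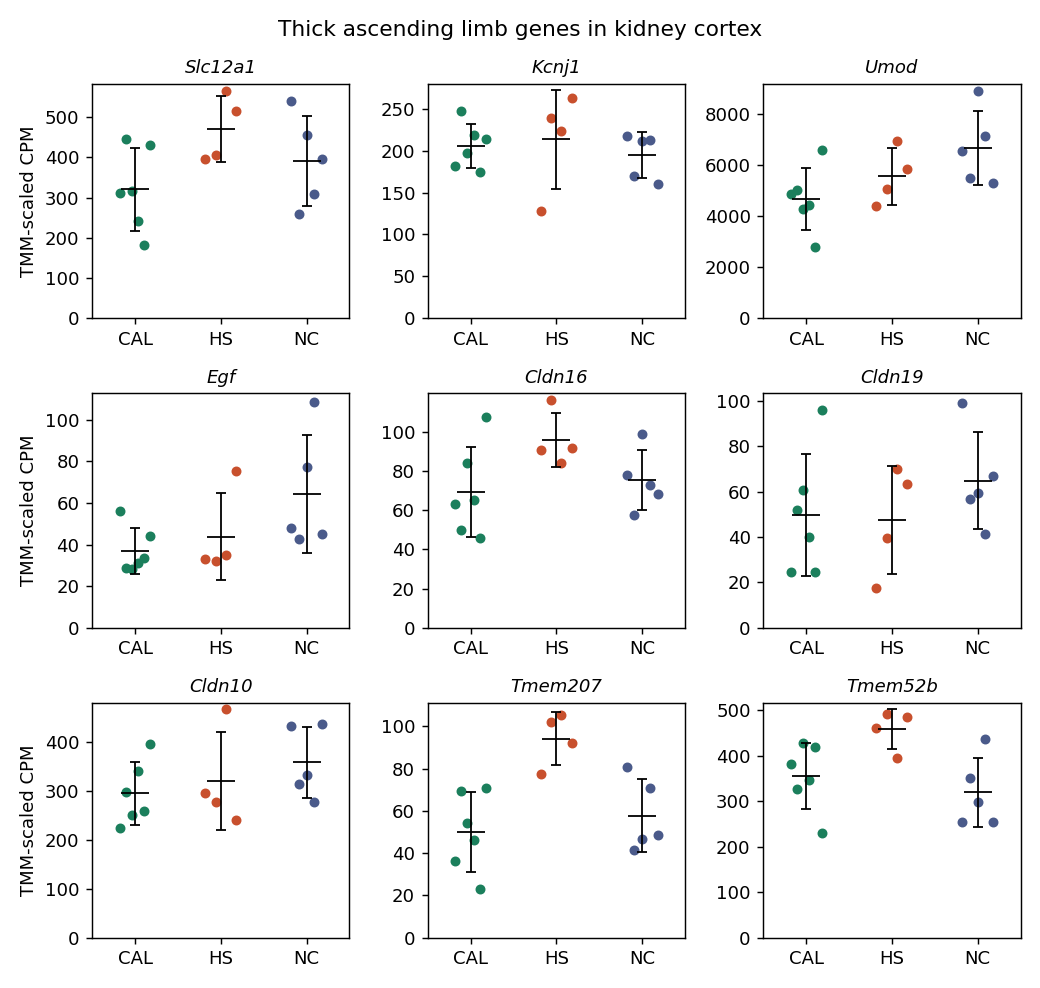
Levels of the 9 genes in each cortex library, in TMM-scaled CPM, for CAL (6 libraries), HS (4) and NC (5); points are libraries, and the bar and whiskers are the mean and SD. Tmem52b and Tmem207 have 3 of 4 HS libraries above every NC library, and Umod has 5 of 6 CAL libraries below every NC library.

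The transport genes of the apical membrane did not pass between HS and NC. Slc12a1, the sodium-potassium-chloride cotransporter and target of loop diuretics, was at 397, 406, 564 and 514 CPM in HS replicates 1 to 4, against 540, 260, 455, 307 and 395 CPM in NC replicates 1 to 5. The ranges overlapped, with 1 HS library above every control (log2 fold change 0.26, SE 0.21, edgeR adjusted p = 0.441). Kcnj1, the potassium channel that recycles potassium for the cotransporter, was at 129, 240, 224 and 264 CPM in HS, against 218, 170, 212, 213 and 160 CPM in NC. HS replicate 1 was the lowest of all 15 cortex libraries for Kcnj1, while the other 3 HS libraries lay above every control (0.16, SE 0.17, edgeR adjusted p = 0.573).

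The secreted products had lower means in HS than in NC and did not pass. Umod, whose protein forms filaments that bind bacteria in the urine, was at 4382, 5064, 6969 and 5844 CPM in HS replicates 1 to 4. It averaged 5565 ± 1110 CPM in HS (SD, n = 4) and 6684 ± 1456 CPM in NC (SD, n = 5), with 2 of 4 HS libraries below every control. Its log2 fold change was -0.26 (SE 0.18, edgeR adjusted p = 0.365). Egf, the precursor of a growth factor that acts on magnesium uptake in the next tubule segment, was at 33.2, 32.0, 35.1 and 75.2 CPM in HS, against 48.2, 42.5, 77.4, 108 and 45.0 CPM in NC. HS replicate 4 stood apart from the other HS libraries, which all lay below every control (-0.41, SE 0.30, edgeR adjusted p = 0.398). The Egf levels rest on 10 to 124 counts a library.

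The claudins form the pores between the cells. Cldn16 and Cldn19, which act together in the reabsorption of calcium and magnesium, averaged 95.7 ± 13.9 and 47.7 ± 23.8 CPM in HS (SD, n = 4) and 75.2 ± 15.2 and 64.7 ± 21.4 CPM in NC (SD, n = 5). Their log2 fold changes were 0.39 (SE 0.21) and -0.46 (SE 0.35), with edgeR adjusted p of 0.235 and 0.413. Cldn19 rests on as few as 8 counts in a library and ranged from 17.7 to 70.1 CPM within the HS group. Cldn10, a form of which makes a sodium pore, averaged 320 ± 100.1 CPM in HS and 358 ± 72.4 CPM in NC (-0.19, SE 0.19, edgeR adjusted p = 0.524). The counts per gene symbol do not separate the forms of Cldn10. The groups overlapped for all 3 claudin genes.

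With calcitriol added to high salt, all 9 genes had a fold change below 0 and none passed the edgeR test, against 0.758% of all tested genes. Of all tested genes 49.0% had a fold change above 0, and the median was -0.26 for the 9 and -0.01 for all. At an unadjusted p under 0.05 there were 4 of the 9 (Tmem207, Slc12a1, Cldn16 and Tmem52b), against 16.2% of all tested genes, while DESeq2 called 1 of the 9 and voom with library weights 1. The 9 genes share libraries and a scaling, so their common sign is a description. The summed erythrocyte markers were at 3598 to 6787 CPM in CAL and 956 to 1735 CPM in HS, with 4 of 6 genes higher past the threshold, and their part in these values was not tested.

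Tmem207 showed the largest of these differences. Its lowest, median and highest CAL levels were 22.9, 50.2 and 71.0 CPM, against 77.6, 102, 105 and 91.9 CPM in the HS replicates. Every CAL library lay below every HS library, which held for 2.30% of all tested genes, and 4.17% had no overlap in either direction. The log2 fold change was -0.96 (SE 0.24) and the edgeR adjusted p 0.0503. Alternatives took it past the threshold with DESeq2 (0.0187), voom and library weights (0.0274), no filter on low counts (0.00594), the 1 CPM filter (0.0459) and robust empirical Bayes (0.0397), as did leaving out CAL replicate 2 (0.0392) or CAL replicate 6 (0.0379). DESeq2 size factors, the compared groups alone and thinning left Tmem207 above the threshold. Over all settings beyond single libraries its edgeR adjusted p reached 0.0846. Over the other single libraries the edgeR adjusted p reached 0.163.

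Slc12a1 ran from 182 over a median of 313 to 446 CPM in CAL, against 397, 406, 564 and 514 CPM in the HS replicates. Of the 6 CAL libraries, 4 lay below every HS library (log2 fold change -0.55, SE 0.20, edgeR adjusted p = 0.185). Cldn16, the neighbour of Tmem207, ran from 45.9 over 64.2 to 107 CPM in CAL, against 90.9, 116, 84.1 and 91.9 CPM in HS, with 5 of 6 CAL libraries below every HS library (-0.49, SE 0.20, edgeR adjusted p = 0.228). Tmem52b ran from 230.1 over 364 to 429 CPM in CAL, with 4 of 6 libraries below every HS library (-0.37, SE 0.16, edgeR adjusted p = 0.253). For the other 5 genes the log2 fold changes were Umod -0.25, Egf -0.26, Cldn10 -0.10, Kcnj1 -0.08 and Cldn19 -0.02, with edgeR adjusted p of 0.514 to 0.991. The sign of Cldn19 turned in 5 of 10 fits without a single library and in 2 of 9 other alternatives. That of Kcnj1 turned in 1 of each kind, and those of Cldn10 and Egf each in 1 fit without a single library.

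**Figure D2:**
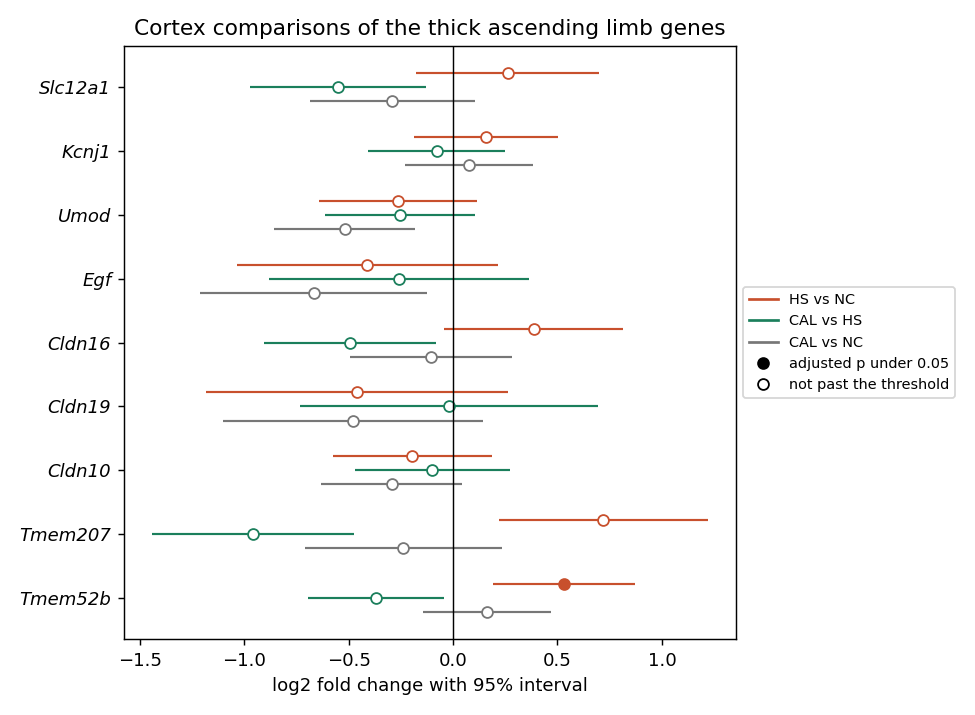
Log2 fold changes of the 9 genes in the 3 cortex comparisons with 95% intervals; a filled point has an edgeR adjusted p under 0.05. The only filled point is Tmem52b in HS against NC, at 0.53, and all 9 points of CAL against HS lie left of 0, though that of Cldn19 is at -0.02 and turned sign under DESeq2.

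Set against controls, the cortex on salt with calcitriol had no member past the edgeR threshold, nor any other of the 7524 genes (0%), where DESeq2 called 15 genes and voom 0. At an unadjusted p under 0.05 there were 2 of the 9, Umod and Egf, against 11.9% of all tested genes, and neither DESeq2 nor voom with library weights called a member. The median log2 fold change of the 9 was -0.29. Umod was at 2802, 4655 and 6582 CPM as the lowest, median and highest of CAL, against 6556, 5513, 8903, 7159 and 5291 CPM in NC replicates 1 to 5. Of the CAL libraries, 5 of 6 lay below every control, and CAL replicate 6 lay among them (-0.52, SE 0.16, edgeR adjusted p = 0.221). With no filter on low counts the adjusted p of Umod was 0.0454.

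Egf ran from 28.4 over 32.4 to 56.1 CPM in CAL, with 4 of 6 libraries below every control (log2 fold change -0.67, SE 0.26, edgeR adjusted p = 0.322). The genes Tmem52b and Kcnj1 had small positive fold changes (0.16 and 0.08), and the other 5 ran from -0.48 (Cldn19) to -0.11 (Cldn16). Their edgeR adjusted p were 0.486 or higher. CAL against HS and CAL against NC share the CAL libraries, and HS against NC shares its libraries with both, so the 3 comparisons are not independent of each other.

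Over the 15 cortex libraries, the highest level was 2.05 times the lowest for Kcnj1, 2.14 times for Tmem52b, 4.58 times for Tmem207 and 5.60 times for Cldn19. CAL replicate 5 was the lowest library for 4 genes (Umod, Slc12a1, Cldn16 and Tmem207) and was below the median of the 15 for 8 of 9. CAL replicate 6 was above the median for 8 of 9. Tmem52b was the exception in both, above the median in CAL replicate 5 and the lowest of all libraries in CAL replicate 6. HS replicates 3 and 4 were each above the median for 8 of 9 genes.

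**Figure D3:**
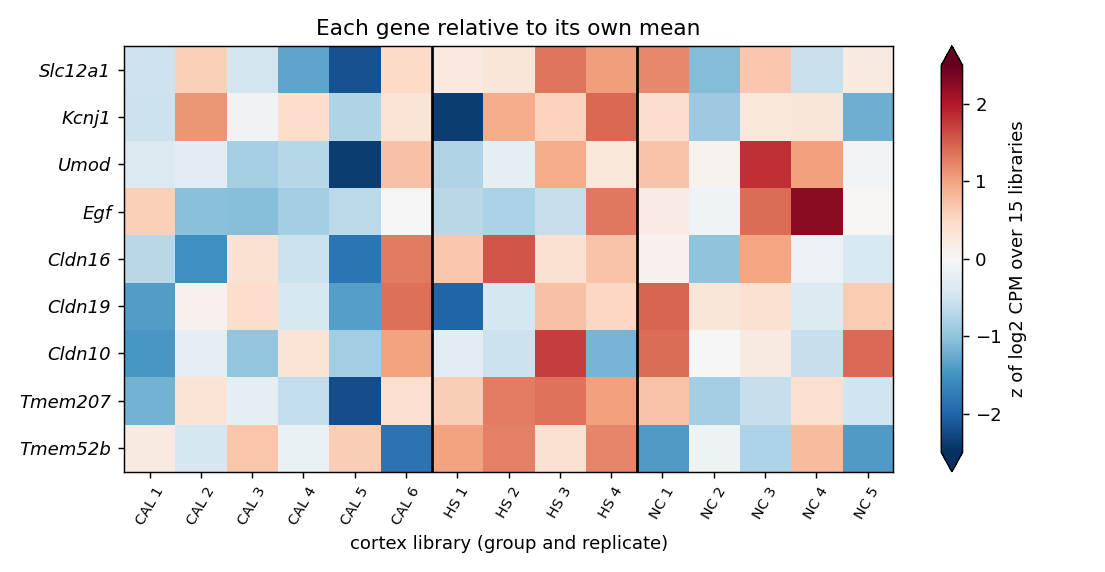
Each gene's log2 CPM in each cortex library as a z-score over the 15 libraries, with CAL, HS and NC libraries from left to right and black lines between groups. CAL replicate 5 is below the median for 8 of 9 genes and HS replicates 3 and 4 above it for 8 of 9, while Tmem52b runs against the other genes in CAL replicates 5 and 6.

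Within a library, the counts of Tmem207 can be read against those of Umod without any scaling between libraries. Tmem207 had 0.744% to 1.38% as many counts as Umod in CAL libraries, 1.51% to 2.02% in HS libraries and 0.526% to 1.23% in NC libraries, so the HS range lay above both others. Against its neighbour Cldn16, Tmem207 had 50% to 138% as many counts in CAL, 85.4% to 125% in HS and 47.3% to 104% in NC, and all 3 ranges overlapped. For Tmem52b the shares of the Umod count were 3.5% to 15% in CAL, 5.68% to 10.5% in HS and 3.36% to 6.37% in NC, and all 3 ranges overlapped. These pairs were chosen after their values were seen.

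Outside the members, the genes whose log2 CPM over the 15 cortex libraries lay closest to the members' mean z-score were Nudt16, Mccc1, Crip2, Bmp4 and Afm. Their Pearson correlations, given as descriptions among 7115 genes, were 0.88, 0.87, 0.81, 0.80 and 0.79. Mccc1 is a subunit of an enzyme of leucine breakdown, Bmp4 is a secreted growth factor and Afm is a vitamin E-binding plasma protein. None of the 5 passed the edgeR test in a cortex comparison, with adjusted p of 0.298 to 0.832. The members themselves followed their shared mean unevenly. Against the mean of the other 8, the correlation was 0.78 for Slc12a1 and Umod, 0.75 for Tmem207, 0.59 for Cldn16 and 0.54 for Cldn19. It was 0.46 for Kcnj1, 0.24 for Egf and Cldn10, and -0.32 for Tmem52b.

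Among other transport and regulatory genes of the thick ascending limb, 2 of the 17 tested rose under high salt and none fell. Of all tested genes 11.0% passed and 7.35% were higher, so that 2 of 17 is near the background. At an unadjusted p under 0.05 there were 10 of the 17, against 27.3% of all tested genes. Of the 17, 8 had a fold change above 0 and 9 below. Cab39 encodes a scaffold that activates the kinases which phosphorylate and switch on the NKCC2 cotransporter, and Cab39l encodes its close relative. Cab39 was at 164, 172, 98.2 and 168 CPM in HS replicates 1 to 4, against 80.8, 91.8, 84.6, 98.6 and 85.1 CPM in NC replicates 1 to 5. HS replicate 3 lay within the control range, just under NC replicate 4, and the other 3 stood above it (log2 fold change 0.81, SE 0.17, edgeR adjusted p = 0.00462). Every HS library lay above every control for Cab39l, as for 7.44% of all tested genes. Cab39l was at 66.8 to 82.4 CPM in HS and 37.8 to 56.7 CPM in NC (0.66, SE 0.20, edgeR adjusted p = 0.0328). Its call ended without NC replicates 3 (0.0714), 4 (0.0562) or 5 (0.0642) or HS replicates 1 (0.0921) or 2 (0.0984), with the 1 CPM filter (0.0549) and when thinned (0.265).

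The median of the 17 was -0.12. DESeq2 called 3 of the 17 and voom with library weights 4, adding Fxyd2, a subunit of the sodium pump, to both and Avpr2, the vasopressin receptor, to the second. These additions were named after their values were seen. None of the 17 passed the edgeR test in CAL against HS, where 1 had an unadjusted p under 0.05 against 16.2% of all tested genes, and none in CAL against NC, where 7 did against 11.9%. DESeq2 and voom called 0 in both, though DESeq2 gave an adjusted p to only 12 and 16 of them. The smallest p were those of Fxyd2 in CAL against HS (0.36, edgeR adjusted p = 0.209), and of Casr, the calcium-sensing receptor that lowers salt and calcium uptake in this segment, in CAL against NC (-0.68, edgeR adjusted p = 0.116). All 6 CAL libraries lay below every control for Casr, as for 0.532% of all tested genes, and with no filter on low counts its adjusted p was 0.0454.

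Of 8 distal nephron transcription factors, 5 were tested. Between HS and NC, 1 of the 5, Esrrg, rose and none fell, against 11.0% of all tested genes that passed and 7.35% that were higher. The median log2 fold change was 0.46 over the 5 and -0.01 over all tested genes. Esrrg, the estrogen-related receptor gamma, known in mouse kidney for its control of mitochondrial and transport genes, was at 86.4, 107, 126 and 107 CPM in HS replicates 1 to 4, against 59.5, 72.2, 61.2, 63.1 and 71.7 CPM in NC replicates 1 to 5. Every HS library was above every control, which held for 7.44% of all tested genes (log2 fold change 0.68, SE 0.16, edgeR adjusted p = 0.00857). When thinned its adjusted p was 0.0556. Esrrg fell with calcitriol, running from 51.8 over 60.8 to 67.1 CPM in CAL. It was the only 1 of the 5 factors to pass in CAL against HS, where 0.758% of all tested genes passed. Every CAL library was below every HS library, as for 2.30% of all tested genes. The log2 fold change of CAL against HS was -0.82 (SE 0.15, edgeR adjusted p = 0.0141), lost without HS replicate 2 (0.0697) and when thinned (0.0834), and that of CAL against NC was -0.13 (0.733). DESeq2 and voom called Esrrg alone of the 5 in both HS against NC and CAL against HS, though DESeq2 gave an adjusted p to only 2 of them in CAL against HS.

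None of the 5 factors passed in CAL against NC by edgeR, DESeq2 or voom, and 2 had an unadjusted p under 0.05, against 11.9% of all tested genes. The smallest p of the list there was that of Ppargc1a, a coactivator of estrogen-related receptors (-0.55, edgeR adjusted p = 0.346).

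**Figure D4:**
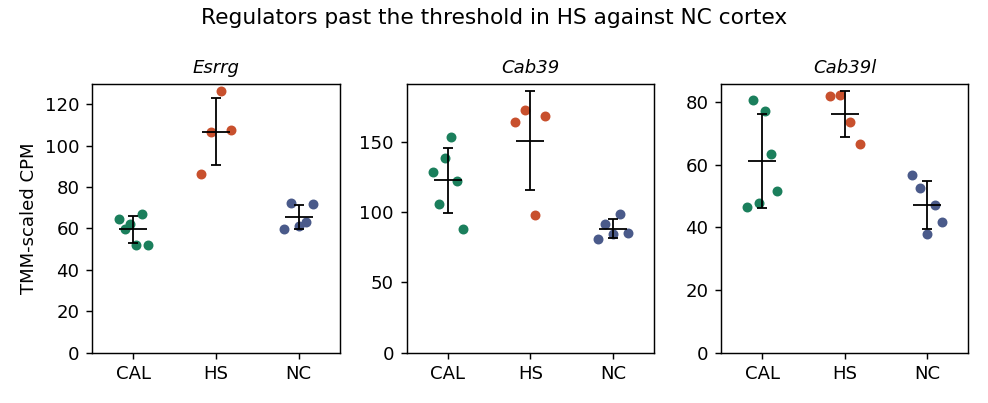
TMM-scaled CPM of the 3 regulators past the edgeR threshold in HS against NC, by cortex library for CAL (6), HS (4) and NC (5); bar and whiskers are the mean and SD. Esrrg in HS lies above every CAL and every NC library, and Cab39l in HS lies above every NC library.

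Of the 11 tested partners in uromodulin processing, claudin pores and magnesium transport, none passed the edgeR test in any cortex comparison. DESeq2 called 0 in each, with no adjusted p for some, and voom called 2 in HS against NC (Cldn8 and Pth1r) and 0 in the others. The unadjusted p was under 0.05 for 3 in HS against NC, 4 in CAL against HS and 1 in CAL against NC, where it was for 27.3%, 16.2% and 11.9% of all tested genes. Cldn8, a barrier claudin of later segments, had the smallest p in HS against NC (log2 fold change 0.48, edgeR adjusted p = 0.0555). Every HS library was above every control for Cldn8, as for 7.44% of all tested genes. The adjusted p of Cldn8 was 0.0321 with voom, 0.0240 with the compared groups alone and 0.0497 with robust empirical Bayes. Pth1r, the parathyroid hormone receptor, had it in CAL against HS (0.51, edgeR adjusted p = 0.114, and 0.0487 with no filter on low counts), and Tjp1, a scaffold of tight junctions, in CAL against NC (0.76, edgeR adjusted p = 0.163).

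Some markers of other cells differed between HS and NC or between CAL and HS. Of all 7524 tested genes, 553 were higher and 278 lower past the threshold in HS against NC. In CAL against HS, 20 were higher and 37 lower. All 6 tested erythrocyte genes fell in HS against NC, and their summed level was 956 to 1735 CPM in HS and 3809 to 19760 CPM in NC. Of the distal convoluted and connecting tubule list, 2 of 5 tested genes (Trpv5 and Calb1) rose, with the summed level of all 6 listed genes at 2435 to 3494 CPM in HS and 1860 to 3215 CPM in NC and Pvalb at 0 in both. None of the 4 tested medullary markers and none of the 7 proximal tubule markers passed. The summed level of the 5 matched medullary genes was 467 to 870.4 CPM in HS and 571 to 1249 CPM in NC. Of 6 intercalated cell markers 1 fell in HS against NC, Aqp6, at 18.7 ± 7.04 CPM in HS (SD, n = 4) and 58.9 ± 21.3 CPM in NC (SD, n = 5). Of 4 podocyte markers 1, Synpo, was higher in CAL than in HS (log2 fold change 1.33, edgeR adjusted p = 0.00252). The part of these markers in the members' values was not tested.

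In the colon the 9 genes were at or near 0. Only Umod, with 107 counts over 16 libraries, and Slc12a1, with 76, had more than 10 counts in all, each in 15 of 16 libraries. Egf had 0 counts, and Tmem52b 1, Cldn19 2, Kcnj1 3, Tmem207 3, Cldn16 6 and Cldn10 10. A count of 0, taken as up to 3 counts, allows between 3.27 and 11.2 CPM in a colon library, a limit that covers counting error only. The members are kidney markers that entered a test between tissues through their cortex counts, so they had to differ, and their levels are given as a description with no test.

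In NC the pooled level of Umod was 6222 CPM in the cortex and 18.3 CPM in the colon, a ratio of 341 (95% counting interval 262 to 452). That of Slc12a1 was 363 CPM in the cortex and 7.97 CPM in the colon, a ratio of 45.5 (30.5 to 71.3). Egf, with 0 counts in the NC colon libraries, was at least 46.0-fold higher in the cortex, the lower 95% counting bound of its 209 NC cortex counts. Cldn16 had a ratio of 52.5 (20.2 to 194) on 4 colon counts, and Tmem207 one of 53.8 (18.2 to 263) on 3. These intervals and the bound cover counting error in the pooled reads only and leave out the spread between libraries. Umod, for example, ran from 2.62 to 39.6 CPM over the NC colon libraries.

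Umod had 14.9 counts for each count of Slc12a1 over the cortex libraries, with single libraries from 11.0 to 23.3, and 1.41 over the colon libraries together. In the 15 colon libraries with a count of Slc12a1 the ratio ran from 0 to 9, on 1 to 10 counts of Slc12a1, so that the highest colon value came close to the lowest in the cortex. Umod varied in the colon from 0 counts in HS replicate 4 to 26 in NC replicate 2. That NC library also held all 3 colon counts of Tmem207 and 3 of the 6 of Cldn16.

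**Figure D5:**
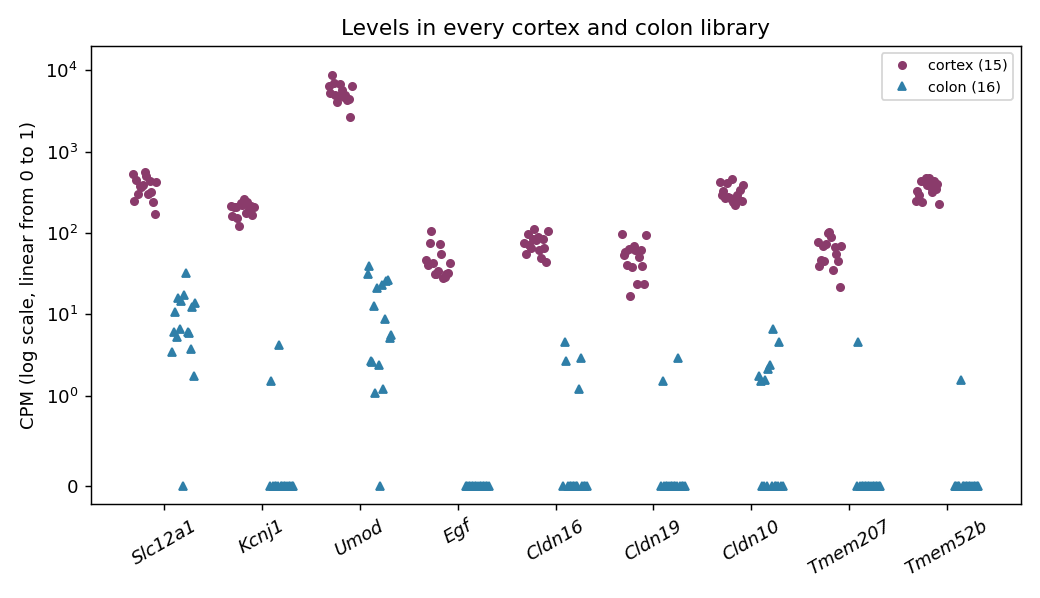
CPM of the 9 genes in every cortex library (15, circles) and colon library (16, triangles) on a log scale that is linear from 0 to 1. Cortex and colon points do not overlap for any of the 9 genes, and most colon points apart from those of Umod and Slc12a1 lie at 0.

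Umod was the only member to pass the low-count filter in the colon and so the only one tested there with that filter. Its log2 fold changes were -1.06 for HS against NC (SE 0.87, edgeR adjusted p = 0.785), 0.42 for CAL against HS (SE 0.90, 0.906) and -0.64 for CAL against NC (SE 0.79, 1). Of all 7217 colon genes 0%, 0.0139% and 0% passed by edgeR, against 11, 4 and 0 genes by DESeq2 and 0, 0 and 1 by voom. The colon effect minus the cortex effect for Umod was -0.87 in HS against NC (SE 0.78, edgeR adjusted p = 0.618) and 0.72 in CAL against HS (SE 0.82, 0.801). Among all 5992 genes tested for this difference, 0.250% passed in HS against NC and 0% in CAL against HS. For the other 8 genes, with too few colon counts to pass the filter, a difference in response between tissues was not tested with that filter. With no filter 8 members were tested in the colon comparisons and for this difference, and with the 1 CPM filter 4. None of them passed.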

How the data were processed

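RNA-seq was measured in 15 cortex and 16 colon libraries. Per the labels, TRIzol was used for extraction and the library kit fragments by tagmentation. Per the submitters' processing notes, the tools were FastQC 0.11.9, Trimmomatic 0.39, HISAT2 2.1.0 and featureCounts 1.6.5 on Rnor_6.0. The annotation and strand setting were not given in the sources used here. The authors deposited raw whole-number counts per gene symbol.

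Counts were tested per tissue in edgeR 4.0.16 (quasi-likelihood, R 4.3.3), with the 3 groups in 1 fit, TMM scaling and a low-count filter (minimum count 10, minimum total 15). The Benjamini-Hochberg adjustment ran over all genes tested. SEs come from the quasi-likelihood F. Tissues were compared in NC libraries alone, and differences in response over genes passing the filter in both tissues. Of the 3 lists of pathway genes, 40 of 41 entries matched; 1 result is not reported here. Named list genes are up to 4 past the threshold per list and comparison or, with none, the 1 with the smallest p. Likeness was ranked among genes averaging 4 or more in log2 CPM.

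Alternatives were DESeq2 1.42.0, edgeR with DESeq2 size factors, limma 3.58.1 voom with library weights, no filter, 1 CPM in at least 4 libraries, compared groups only (for the tissues, all 31 libraries), robust empirical Bayes, a replicate block and leaving out single libraries. Thinning to 267976 counts and colon fits without HS replicates 3 and 4 were chosen after seeing the data. The tests were checked on simulated counts. No 2 libraries held identical values. The members and lists were chosen with earlier results of these data known.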

Additional observations from a re-analysis of the deposited data

Results flagged for a closer look

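Among 60 groups of libraries tested for a single distant library, 3 held one, where chance gives about 1 in 20. Egf in the HS cortex had its highest level, 75.2 CPM, in replicate 4, with the next at 35.1 CPM. Cab39 in the HS cortex had its lowest level, 98.2 CPM, in replicate 3, with the next at 164 CPM. Ppargc1a in the HS cortex had its highest level, 59.6 CPM, in replicate 3, with the next at 28.8 CPM. HS replicate 3 was the shallowest cortex library, at 289529 counts.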

How the results depend on the processing

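Of the 9 members, 1 passed in HS against NC, while 2 passed with voom, with no filter, with the compared groups only and with robust empirical Bayes, 0 with the 1 CPM filter, and 0 to 1 without single libraries. In CAL against HS 0 passed, but 1 with DESeq2, voom, no filter, the 1 CPM filter and robust empirical Bayes, and 0 to 1 without single libraries. In CAL against NC 0 passed, but 1 with no filter and 1 with the replicate block. Over all genes, the count in HS against NC was 831, with 358 when thinned and 324 to 850 without single libraries (553 without NC replicate 3, and 393, 324 and 469 without HS replicates 1, 2 and 4). In CAL against HS it was 57, with 101 by DESeq2, 128 unfiltered, 30 for compared groups only, 22 with the replicate block, 10 thinned and 2 to 80 without single libraries. In CAL against NC it was 0, with 15 by DESeq2, 83 unfiltered, 7 with the 1 CPM filter, 2 with robust empirical Bayes, 42 with the replicate block, 1 thinned and 0 to 40 without single libraries. In the colon, HS against NC gave 0, with 11 by DESeq2, 59 unfiltered, 1 with robust empirical Bayes, 1 thinned, 1 without HS replicates 3 and 4, and 0 to 1 without single libraries. CAL against HS there gave 1, with 4 by DESeq2, 0 by voom, 66 unfiltered, 5 with the 1 CPM filter, 2 with robust empirical Bayes, 0 with the replicate block, 0 thinned, 0 without HS replicates 3 and 4, and 0 to 14 without single libraries. CAL against NC there gave 0, with 1 by voom, 1 unfiltered and 2 for compared groups only. Between NC cortex and NC colon it was 4921, with 3082 when thinned. In CAL against HS cortex, the log2 fold change of Cldn19 turned sign with DESeq2 (0.0501) and compared groups only (0.0078) and ran from -0.30 to 0.23 without single libraries. Those of Cldn10 (-0.22 to 0.11), Egf (-0.50 to 0.22) and Kcnj1 (-0.24 to 0.047, and 0.16 thinned) turned too, as did Cldn16 in CAL against NC (-0.24 to 0.0081) and Umod in CAL against HS colon (-0.13 to 1.14, and -0.17 without HS replicates 3 and 4). Of 981 alternative values of single genes, 20 newly passed, 18 no longer passed and 14 changed sign. The cause was not tested. Replicate numbers did not pair the cortex libraries: deviations of same-numbered libraries correlated at -0.16 to 0.07, 0 of 13 pairs were over 0.1, and 2 of 13 libraries correlated best with their own number. With the replicate block, Umod in CAL against NC was at -0.64 (edgeR adjusted p = 0.0267, and 0.0267 to 0.436 over all its alternatives). Low counts limit Egf and Cldn19 most, whose lowest counts were 10 in HS replicate 3, the shallowest cortex library, and 8 in HS replicate 1.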
